A study of Homo sapiens with 4 samples.

Results

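The SERTA-domain genes are a small group of transcriptional co-regulators that act at the switch from G1 to S phase, and 5 of them were examined here: SERTAD1, SERTAD2, SERTAD3, SERTAD4 and CDCA4. They were taken by symbol from the 20263 genes of a count table, because their messenger RNAs lay on opposite sides of their control levels after treatment with a ribociclib derivative. The difference between the groups in these 5 genes is therefore given as a description, with no test. All 5 passed the filter on low counts. YW-LF was given for 24 h to MDA-MB-231, an established line of human breast cancer cells that lack hormone receptors and HER2 (n = 2 libraries), against cells labelled DMSO, the solvent (n = 2 libraries). The series title calls YW-LF a ribociclib derivative that acts through the p53 pathway; ribociclib inhibits the kinases CDK4 and CDK6. Its dose is not stated in the labels. They also do not say whether replicates came from separate cultures, so the p-values below reflect the spread between these libraries alone, which may be technical.

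SERTA-domain proteins carry no DNA-binding domain of their own. They join E2F and DP transcription factors and bring co-activators such as CBP to them, and E2F and DP in turn switch on the genes of DNA replication. SERTAD1 also binds CDK4 and keeps the cyclin D-CDK4 kinase active when the INK4 inhibitor encoded by CDKN2A is present. CDCA4 is known both as a target of E2F and as a modulator of it, SERTAD2 as an E2F co-regulator that in mouse fat tissue restrains lipolysis, SERTAD3 as a trans-activator that binds the replication protein RPA2, and SERTAD4 is the least studied of the group.

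Library totals ran from 34774542 to 40218240 counts, so 1 count was worth 0.0249 to 0.0288 CPM (counts relative to the library total) before scaling. The YW-LF libraries correlated with each other at 0.907 in log2 CPM across 13816 genes, and the DMSO libraries at 0.976 (genes are not independent replicates). YW-LF replicate 1 correlated with DMSO replicates 1 and 2 at 0.922 and 0.911, above its correlation with YW-LF replicate 2, and YW-LF replicate 2 stood furthest apart, at 0.865 and 0.859 with the DMSO libraries. The fold changes of the members are therefore also given with each YW-LF library left out. Mitochondrially encoded genes held 3.14% and 6.58% of counts in YW-LF replicates 1 and 2, against 8.68% and 21.7% in DMSO replicates 1 and 2. With these 13 genes removed, the fold change of each SERTA-domain gene moved by less than the spread between replicates. Markers known for the line were present: VIM stood at 2122 to 4154 CPM over the 4 libraries and AXL at 535 to 1785 CPM. The 6 markers it lacks or holds at low levels reached at most 21.4 CPM, in GATA3. Among them the oestrogen receptor gene ESR1 stood at 0.13 to 0.66 CPM and the epithelial cadherin gene CDH1 at 0 to 0.26 CPM. The summed level of 6 markers of the line was 3654 and 5430 CPM in YW-LF replicates 1 and 2, against 6970 and 8444 CPM in DMSO replicates 1 and 2; its part in the results was not tested. Of 8 markers of other cell types, CD68 stood at 149 to 333 CPM, no other exceeded 7.92 CPM, and CD3E and COL1A2 were at 0. The summed level of these 8 was 239 and 234 CPM in YW-LF libraries and 158 and 342 CPM in DMSO libraries.

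The promoters of the members that differed most, and of the member known as an E2F target, are shown because SERTA-domain proteins act with E2F. Each sequence is the 250 bases before the RefSeq start in GRCh38.p14, 5′ to 3′ on the gene's own strand, and capitals mark the matches found among 6 searched motifs. The windows are chr1:210232546-210232795 on the plus strand for SERTAD4, chr19:40425993-40426242 on the minus strand for SERTAD1 and chr14:105021084-105021333 on the minus strand for CDCA4.
SERTAD4: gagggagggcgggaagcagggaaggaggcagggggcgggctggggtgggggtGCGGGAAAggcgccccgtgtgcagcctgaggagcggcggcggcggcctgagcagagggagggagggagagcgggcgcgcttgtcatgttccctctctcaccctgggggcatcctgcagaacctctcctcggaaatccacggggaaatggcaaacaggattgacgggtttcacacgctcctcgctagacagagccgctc
SERTAD1: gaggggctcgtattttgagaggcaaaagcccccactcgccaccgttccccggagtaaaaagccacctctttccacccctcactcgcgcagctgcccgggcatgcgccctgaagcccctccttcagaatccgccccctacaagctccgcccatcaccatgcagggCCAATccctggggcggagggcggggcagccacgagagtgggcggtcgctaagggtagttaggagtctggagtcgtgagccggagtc
CDCA4: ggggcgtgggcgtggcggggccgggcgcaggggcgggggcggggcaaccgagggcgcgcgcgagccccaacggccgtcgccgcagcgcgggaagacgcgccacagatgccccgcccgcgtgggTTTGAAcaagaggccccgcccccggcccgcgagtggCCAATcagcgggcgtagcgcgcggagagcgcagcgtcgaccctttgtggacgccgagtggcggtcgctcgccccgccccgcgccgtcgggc
The motifs were searched on both strands: the E2F site (TTTCCCGC, TTTCGCGC, TTTGCCGC or TTTGGCGC), the cell cycle homology region or CHR (TTTGAA), the CCAAT box (CCAAT), the cyclic AMP response element (TGACGTCA), the ATF4 element (TGATGNAA) and the AP-1 site (TGANTCA). The SERTAD4 window held an E2F match on its opposite strand, GCGGGAAA, at bases -198 to -191 counted back from the start. A match to that motif was found in 2.77% of all 34943 RefSeq promoter windows of this length. SERTAD1 held a CCAAT box at -86 to -82. CDCA4 held a CHR at -127 to -122, a motif found in 13.4% of windows, and a CCAAT box at -91 to -87, found in 32% of windows. No E2F match was found in the window of CDCA4, the known E2F target, nor in those of SERTAD1 and SERTAD3. The SERTAD3 window held CCAAT boxes at -85 to -81 and at -52 to -48. The SERTAD2 window held none of the 6 motifs, and a further start of SERTAD4 held a CCAAT box at -47 to -43. The cyclic AMP, ATF4 and AP-1 motifs, present in 1.63%, 3.15% and 6.59% of all windows, were in none of the members' windows. A match is a description of letters in the window, not a shown binding site.

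SERTAD4 (ENSG00000082497; GRCh38 chromosome 1, 210232799 to 210246631, plus strand) was the member furthest from its control level, with 29.5-fold lower messenger RNA in YW-LF cells. Its level was 1.19 and 2.85 CPM in the treated replicates 1 and 2, against 62.7 and 55.6 CPM in the DMSO replicates 1 and 2. CPM here and below are scaled by trimmed means of M-values (TMM), which corrects for differences in library make-up. Both treated libraries lay far below both controls, and the higher YW-LF value was 0.051 times the lower DMSO value. The treated values rest on 60 and 88 counts, for which exact Poisson intervals at 95% are 0.91 to 1.54 CPM and 2.28 to 3.51 CPM; these cover counting error only. Group means were 2.02 ± 1.17 CPM in YW-LF and 59.2 ± 5.01 CPM in DMSO (SD, n = 2 each), and the log2 fold change from edgeR was -4.88 (SE 0.57). With YW-LF replicate 1 left out it was -4.38, and with YW-LF replicate 2 left out -5.64. With all libraries it was the 11th lowest of the 13816 genes tested, and 0.753% differed at least as much in either direction. In bulk RNA, fewer cells that express a gene and less messenger RNA per cell cannot be told apart. The antisense gene SERTAD4-AS1 overlaps exons of SERTAD4, is not itself listed in the table, and no source used here states the strand setting of the counting, so its reads cannot be told apart.

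SERTAD1 (ENSG00000197019; chromosome 19, 40421592 to 40426025, minus strand), the CDK4-binding member, was 5.16-fold higher in YW-LF cells. It had 42.2 and 60.1 CPM in YW-LF replicates 1 and 2, against 10.1 and 9.74 CPM in DMSO replicates 1 and 2. Every YW-LF value lay above every DMSO value, and the lowest treated value was 4.19 times the highest control. Means were 51.1 ± 12.6 CPM in YW-LF and 9.90 ± 0.23 CPM in DMSO (SD, n = 2 each), a log2 fold change of 2.37 (SE 0.39). With YW-LF replicate 1 left out it was 2.60, and with YW-LF replicate 2 left out 2.08. With all libraries it was the 510th highest of the genes tested, and 5.08% differed at least as much in either direction.

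SERTAD3 (ENSG00000167565; chromosome 19, 40440844 to 40444705, minus strand), the RPA2-binding member, was 2.24-fold higher. It had 29.2 and 24.4 CPM in YW-LF replicates 1 and 2, against 12.4 and 11.5 CPM in DMSO replicates 1 and 2. The groups did not overlap, and here YW-LF replicate 1 was the higher of the treated libraries, whereas for SERTAD1 it was the lower. The log2 fold change was 1.16 (SE 0.38), a size reached by 24.1% of genes tested. Leaving out YW-LF replicate 1 gave 1.02 and leaving out YW-LF replicate 2 gave 1.27. An antisense gene, AC010271.1, overlaps exons of SERTAD3 and is not in the table.

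CDCA4 (ENSG00000170779; chromosome 14, 105009573 to 105021148, minus strand), the member known as an E2F target, was 1.57-fold lower, and the treated libraries differed in how far. It had 64.7 and 43.7 CPM in YW-LF replicates 1 and 2, against 81.0 and 89.3 CPM in DMSO replicates 1 and 2. Both treated values were below both controls after TMM scaling, but with library size as the only scaling YW-LF replicate 1, at 80.9 CPM, lay between DMSO replicate 1 at 87.2 CPM and DMSO replicate 2 at 79.2 CPM. The log2 fold change was -0.65 (SE 0.37). Leaving out YW-LF replicate 1 gave -0.97 and leaving out YW-LF replicate 2 gave -0.41, and 49.1% of genes tested differed at least as much. CDCA4 has 4 annotated pseudogene copies that are not in the table, and whether reads are shared with them was not tested.

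SERTAD2 (ENSG00000179833; chromosome 2, 64631621 to 64751005, minus strand), the lipolysis-restraining member, was the one nearest its control level. It had 119 and 162 CPM in YW-LF replicates 1 and 2, against 146 and 187 CPM in DMSO replicates 1 and 2. The groups overlapped, and the replicates of either group stood further apart (1.36 times in YW-LF, 1.28 times in DMSO) than the group means, whose fold was 1.18 lower. The log2 fold change was -0.24 (SE 0.39), and 79.1% of genes tested differed at least as much. Leaving out YW-LF replicate 1 gave -0.045, leaving out YW-LF replicate 2 gave -0.49, leaving out DMSO replicate 1 gave -0.41 and leaving out DMSO replicate 2 gave -0.067. With library size as the only scaling the groups did not overlap, at 149 and 136 CPM in YW-LF and 157 and 166 CPM in DMSO.

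**Figure D1:**
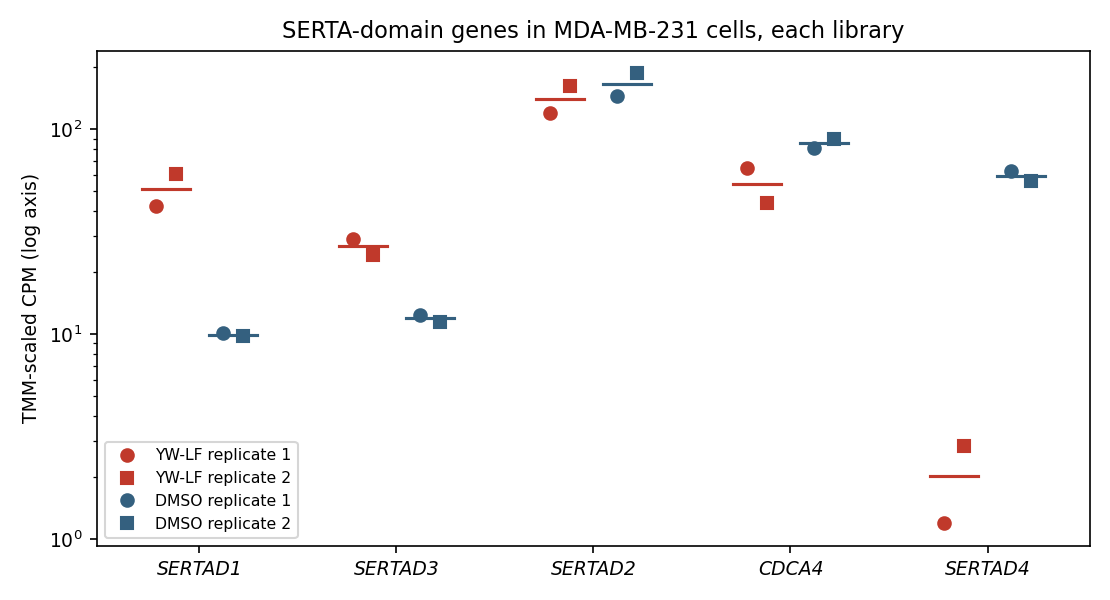
TMM-scaled CPM on a log axis of the 5 SERTA-domain genes in each library; circles are replicate 1, squares replicate 2, lines the group means (n = 2 each). SERTAD1 and SERTAD3 lie higher in YW-LF than in DMSO, SERTAD2 overlaps, CDCA4 lies slightly lower, and SERTAD4 lies at 1.19 and 2.85 CPM against 62.7 and 55.6 CPM.

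Over all 13816 genes tested the groups did not overlap in 55.8%, with the YW-LF pair higher in 28% and lower in 27.8%. Of the 5 members, SERTAD1 and SERTAD3 lay above, SERTAD4 and CDCA4 below, and SERTAD2 overlapped; since this contrast chose the members, nothing is read from that count. No gene of the table passed edgeR's quasi-likelihood test after Benjamini-Hochberg adjustment (0%, lowest adjusted p = 0.117), so the calls below use other rules. At an unadjusted p under 0.05 edgeR had 11.5% of genes higher and 9.01% lower, and DESeq2 called 5.95% higher and 4.41% lower at an adjusted p under 0.05. With the replicate number as a block edgeR called 2.4% of genes after adjustment, and with a minimum total count of 1 as the only filter 1.64%. With 1 library left out, edgeR's adjusted calls took very different shares of all genes: 41.7% without YW-LF replicate 1 (20.7% lower), 20.3% without YW-LF replicate 2 (10.2% lower), 0.512% without DMSO replicate 1 (0.194% lower) and 0.443% without DMSO replicate 2 (0.111% lower).

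The size of the gap between the treated replicates was not unusual for these genes. The log2 ratio of YW-LF replicate 1 to replicate 2 was -1.22 for SERTAD4, a gap matched or exceeded by 27.8% of genes tested. It was 0.57 for CDCA4, -0.51 for SERTAD1, -0.44 for SERTAD2 and 0.25 for SERTAD3, gaps that 60.2% to 81.6% of genes matched or exceeded. Treated replicate 1 was thus the lower one for SERTAD1, SERTAD2 and SERTAD4 and the higher one for SERTAD3 and CDCA4. The DMSO replicates differed less, by 0.36 at most, in SERTAD2.

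The make-up of the group was compared within each library, where the scaling between libraries cancels. Levels were divided by the length of all annotated exons, since SERTAD2 and SERTAD4 transcripts are longer than the others. SERTAD4 held 0.28% and 0.63% of the summed CPM per kb of the 5 genes in YW-LF replicates 1 and 2, against 14.8% and 11.9% in DMSO replicates 1 and 2. SERTAD1 held 25.6% and 34.2% in YW-LF replicates 1 and 2, against 6.16% and 5.40% in DMSO replicates 1 and 2. Within a library, SERTAD1 thus had 91.4 and 54.5 times the per-length level of SERTAD4 in the YW-LF libraries, and 0.42 and 0.45 times it in the DMSO libraries. CDCA4 held 33.0% and 20.9% in YW-LF, against 41.7% and 41.6% in DMSO. SERTAD3 held 16.8% and 13.2% in YW-LF, against 7.26% and 6.08% in DMSO. The summed level of the group, unlike these shares, rests on the TMM scaling between libraries. With that scaling it was 78.1 and 83.2 CPM per kb in YW-LF and 77.3 and 85.4 CPM per kb in DMSO. The sum was not examined under other scalings.

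**Figure D2:**
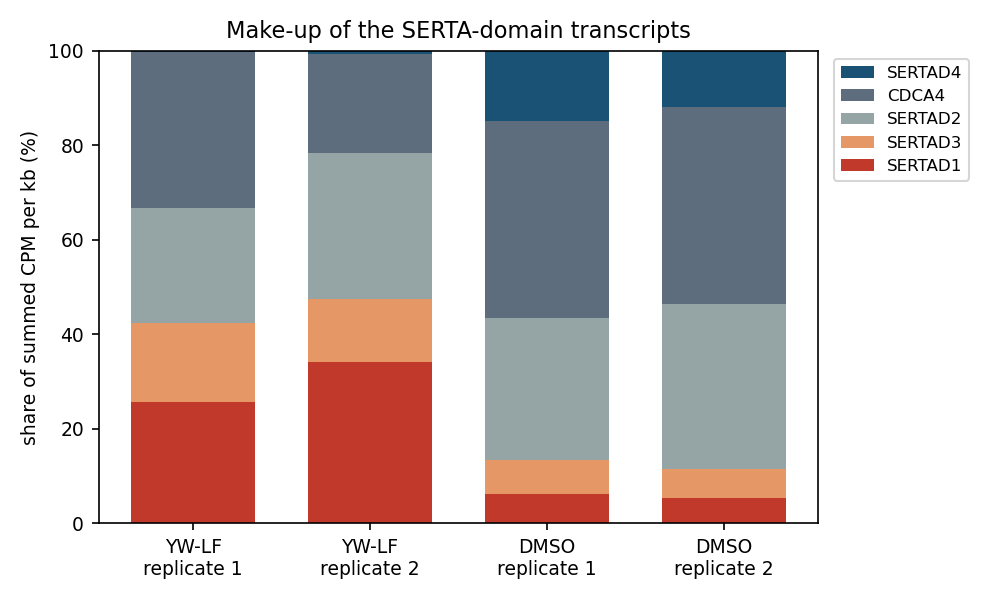
Share of each SERTA-domain gene in their summed CPM per kb of exon (stacked bars, percent) in each library, YW-LF on the left and DMSO on the right. SERTAD1 takes 25.6% and 34.2% in YW-LF against 6.16% and 5.40% in DMSO, and SERTAD4 is hardly visible in YW-LF.

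In per-length level the order in both YW-LF libraries ended with SERTAD3 and then SERTAD4. In both DMSO libraries it was CDCA4, SERTAD2, SERTAD4, SERTAD3 and SERTAD1, from high to low. SERTAD1 was thus lowest of the group in DMSO cells, at 4.76 and 4.61 CPM per kb, next to SERTAD3 at 5.61 and 5.19. In YW-LF cells the first places were not the same in both libraries: CDCA4 led in replicate 1 at 25.8 CPM per kb, ahead of SERTAD1 at 20.0 and SERTAD2 at 19.0, and in replicate 2 SERTAD1 led at 28.4, ahead of SERTAD2 at 25.8 and CDCA4 at 17.4. The order of SERTAD1 and SERTAD2 in YW-LF turned when the longest transcript was used as the length, with SERTAD2 at 21.5 and 29.2 CPM per kb. The DMSO order was the same with either length.

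Partners of the SERTA-domain proteins were read from the same fit over all genes, in lists chosen from textbook knowledge. The lists were chosen with earlier results of these data known, so their counts here and below are descriptions and no independent check. On the side of CDK4, the kinase that SERTAD1 binds, 8 of 10 genes passed the count filter. Of these, 2 lay above and 4 below DMSO in both YW-LF libraries, where 28% and 27.8% of all genes did. In edgeR 1 was higher and 1 lower at an unadjusted p under 0.05, where 11.5% and 9.01% of all genes were. The median log2 fold change was -0.14, against 0.063 over all genes. CDK4 itself had 69.5 and 160 CPM in YW-LF, against 55.4 and 58.2 CPM in DMSO, a log2 fold change of 1.02 (SE 0.48, edgeR adjusted p = 0.281). Both treated values were above the controls, YW-LF replicate 2 by far the more. CDKN2D, an INK4 inhibitor of CDK4 and CDK6, had 28.9 and 28.5 CPM in YW-LF, against 16.9 and 13.0 CPM in DMSO. CDKN2C, a further INK4 inhibitor, had 14.0 and 24.7 CPM in YW-LF, against 36.5 and 39.5 CPM in DMSO. These INK4 genes lay on opposite sides of their controls without overlap, with edgeR adjusted p = 0.234 for CDKN2D and 0.251 for CDKN2C.

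CDKN2A encodes the INK4 inhibitor in whose presence SERTAD1 keeps the cyclin D-CDK4 kinase active. It had counts only in YW-LF replicate 2, where 2 were found, and CDKN2B had 0 in all 4 libraries. Deletion of this locus is a known feature of MDA-MB-231. CCND1, cyclin D1, had 328 and 312 CPM in YW-LF, against 798 and 959 CPM in DMSO. It was the only gene of this list that DESeq2 called (adjusted p = 0.018, edgeR adjusted p = 0.164), where 4.41% of all genes were called lower. The number of genes of this list called by edgeR after adjustment was 0 with all libraries, without DMSO replicate 1 and without DMSO replicate 2, but was 4 (2 in each direction) once YW-LF replicate 1 was left out, a fit that called 41.7% of all genes, and 3 (1 of them higher) once YW-LF replicate 2 was, where 20.3% of all genes were called. Its median was -0.27 with YW-LF replicate 1 left out, -0.43 with YW-LF replicate 2 left out, -0.023 without DMSO replicate 1 and -0.23 without DMSO replicate 2.

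Among the E2F and DP factors, the transcription factors that SERTA-domain proteins join, all 8 genes were tested. Of these, 4 lay below DMSO in both YW-LF libraries and 1 above, where 27.8% and 28% of all genes did. The median log2 fold change was -0.50, against 0.063 over all genes. E2F2, an activating E2F, had 1.47 and 2.46 CPM in YW-LF, against 12.6 and 17.2 CPM in DMSO, 7.59-fold lower (edgeR adjusted p = 0.121, DESeq2 adjusted p = 3.85e-05). E2F1, the best known activator, had 18.7 and 41.8 CPM in YW-LF, against 86.8 and 100 CPM in DMSO, 3.09-fold lower (edgeR adjusted p = 0.152, DESeq2 adjusted p = 0.0287). TFDP1, the main DP partner, had 76.1 and 141 CPM in YW-LF, against 206 and 246 CPM in DMSO (edgeR adjusted p = 0.245). E2F6, a repressor chosen after its value was seen, was the 1 factor above its controls, at 22.6 and 17 CPM in YW-LF, against 10.9 and 11.2 CPM in DMSO. DESeq2 called E2F1 and E2F2 lower and none higher, where 4.41% of all genes were called lower and 5.95% higher. In edgeR, adjusted calls were 0 without DMSO replicate 1 or without DMSO replicate 2, 2 with YW-LF replicate 1 left out (41.7% of all genes), both lower, and 5 with YW-LF replicate 2 left out (20.3% of all genes), of which 4 were lower. The median was -0.43 with YW-LF replicate 1 left out and -1.0 with YW-LF replicate 2 left out.

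The listed E2F target genes, mostly genes of DNA replication and S phase, were mostly lower in YW-LF cells. Other kinds of E2F target were not examined as a list. Of 25 E2F target genes, all tested, 23 lay below DMSO in both YW-LF libraries (27.8% of all genes did), 0 lay above and 2 overlapped, and the median log2 fold change was -1.56 against 0.063 over all genes. At an unadjusted p under 0.05, edgeR had 18 lower and 0 higher, against 9.01% of all genes lower, and DESeq2 called 12 lower and 0 higher, against 4.41% of all genes lower. UHRF1, which maintains DNA methylation, had 9.17 and 17.7 CPM in YW-LF, against 193 and 196 CPM in DMSO. MCM3, part of the replicative helicase, had 34.0 and 40.9 CPM in YW-LF, against 278 and 273 CPM in DMSO. CCNE2, cyclin E2, had the lowest fold change of the list, 16.9-fold lower. Each had an edgeR adjusted p of 0.117, and SERTAD4 was lower than all 25 by its log2 fold change, while the known E2F target CDCA4, at -0.65, lay between TK1 (-0.82) and MCM7 (-0.33), beside CDC45 (-0.65). TK1, MCM7 and CDC45, all of DNA synthesis, are named here for their place beside CDCA4. In edgeR, adjusted calls in the list were 0 with all libraries, and all calls made with 1 library left out were lower. They were 16 with YW-LF replicate 1 left out (20.7% of all genes lower), 25 with YW-LF replicate 2 left out (10.2%), 3 with DMSO replicate 1 left out (0.194%) and 2 with DMSO replicate 2 left out (0.111%). The median was -1.21 with YW-LF replicate 1 left out and -2.01 with YW-LF replicate 2 left out.

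**Figure D3:**
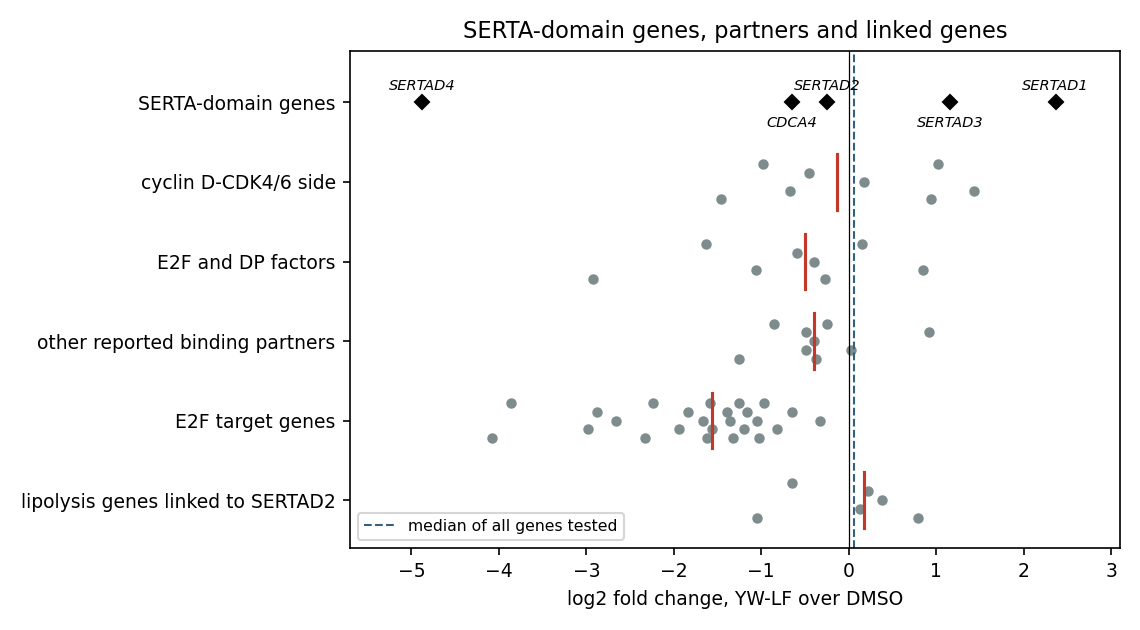
Log2 fold change (YW-LF over DMSO) of the SERTA-domain genes (diamonds) and of each tested gene of 5 lists (dots, spread vertically for legibility); red lines are list medians and the dashed line the median of all genes tested. The 5 members span -4.88 to 2.37, and every listed E2F target lies below 0, with a median of -1.56.

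Other reported binding partners lay on both sides of their controls. Of 9 genes, 5 lay below DMSO in both YW-LF libraries and 1 above, where 27.8% and 28% of all genes did. The median was -0.40, against 0.063 over all genes, and DESeq2 called 0. With edgeR 1 was higher and 0 lower at an unadjusted p under 0.05, where 11.5% and 9.01% of all genes were. That gene, XIAP, an inhibitor of apoptosis that SERTAD1 binds, had 70.0 and 59.6 CPM in YW-LF, against 32.9 and 35.7 CPM in DMSO (edgeR adjusted p = 0.212). SMAD1, a transducer of bone morphogenetic protein signals, had 9.79 and 3.30 CPM in YW-LF, against 14.5 and 16.7 CPM in DMSO. CREBBP, the co-activator CBP, had 150 and 144 CPM in YW-LF, against 188 and 344 CPM in DMSO. RPA2, the partner of SERTAD3, was lower in both treated libraries without passing any test, at 42.1 and 34.9 CPM in YW-LF, against 49.5 and 50.3 CPM in DMSO. Adjusted edgeR calls in this list were 3 of 9 (1 of them higher) with YW-LF replicate 1 left out, where 41.7% of all genes were called, and 1, higher, with YW-LF replicate 2 left out, where 20.3% were. The median was then -0.29 and -0.45.

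Genes of lipolysis, the process that SERTAD2 restrains in mouse fat, showed no common direction. Of 7, 6 were tested, and 1 lay above and 2 below DMSO in both YW-LF libraries, where 28% and 27.8% of all genes did. EdgeR at an unadjusted p under 0.05 and DESeq2 called 0. PNPLA2, the triglyceride lipase ATGL, had 118 and 101 CPM in YW-LF, against 151 and 192 CPM in DMSO. LIPE, hormone-sensitive lipase, had 3.03 and 4.14 CPM in YW-LF, against 7.64 and 7.14 CPM in DMSO. PLIN2, a coat protein of lipid droplets, had 147 and 107 CPM in YW-LF, against 65.9 and 80.8 CPM in DMSO. The 2 lipases and the droplet coat gene thus stood on opposite sides of their controls. The median was 0.17, but 0.53 with YW-LF replicate 1 left out and -0.48 with YW-LF replicate 2 left out; the adjusted edgeR calls were then 1 (higher; 41.7% of all genes called) and 2 (1 in each direction; 20.3% of all genes called).

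Position was not used to choose the members, so the genes around them were examined. SERTAD1 and SERTAD3 lie on the same strand of chromosome 19, 14818 bases apart, with no gene of the table between them. BLVRB, which encodes biliverdin reductase B and lies 3059 bases beyond SERTAD3, had 52.2 and 48.2 CPM in YW-LF, against 15.4 and 17.8 CPM in DMSO, 3.02-fold higher (edgeR adjusted p = 0.121, DESeq2 adjusted p = 0.0118). SERTAD1, SERTAD3 and BLVRB, next to each other among the genes of the table, thus all stood above their controls without overlap, the SERTA-domain genes having been chosen for their values. PRX on the other side of SERTAD1, which encodes the myelin protein periaxin, had 27.2 and 6.54 CPM in YW-LF, against 7.4 and 6.46 CPM in DMSO, and was high in YW-LF replicate 1 alone.

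Around SERTAD4 the nearest genes of the table did not share its level. HHAT, the acyltransferase that modifies Hedgehog proteins, had 7.30 and 8.97 CPM in YW-LF, against 7.37 and 9.65 CPM in DMSO, and SYT14 on the other side had at most 0.065 CPM. Next to SERTAD2, AFTPH, a trafficking protein, had 50.7 and 32.6 CPM in YW-LF, against 26.0 and 19.2 CPM in DMSO, and SLC1A4, an amino acid transporter, had 27.8 and 8.22 CPM in YW-LF, against 24.5 and 23.3 CPM in DMSO. CLBA1, whose exons overlap the end of CDCA4 on the other strand, had 30.9 and 59.0 CPM in YW-LF, against 9.83 and 11 CPM in DMSO (edgeR adjusted p = 0.121, DESeq2 adjusted p = 0.00179). CLBA1 and CDCA4 thus differed in opposite directions, and with the strand setting not given, reads in their overlap cannot be told apart. GPR132, on the other side of CDCA4, had 3.48 and 5.15 CPM in YW-LF, against 5.63 and 5.56 CPM in DMSO.

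In all, 24 neighbours, up to 3 on each side of each member, were taken from the table, members left out, and 20 were tested. Of these 7 lay above and 3 below DMSO in both YW-LF libraries, where 28% and 27.8% of all genes did. At an unadjusted p under 0.05 edgeR had 3 higher and 0 lower, where 11.5% and 9.01% of all genes were. The 3 were BLVRB, CLBA1 and the centrosomal gene CEP68 near SERTAD2. CEP68 had 18.3 and 20.1 CPM in YW-LF, against 8.73 and 6.04 CPM in DMSO (edgeR adjusted p = 0.164). DESeq2 called BLVRB and CLBA1 higher, where 5.95% of all genes were. With YW-LF replicate 1 left out edgeR's adjusted calls were 8 of 20 (6 of them higher), near the 41.7% of all genes called by that fit. With YW-LF replicate 2 left out they were 8 (all higher), where 20.3% of all genes were called, and with either DMSO library left out they were 0. The median log2 fold change was 0.54, but 0.30 without YW-LF replicate 1.

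**Figure D4:**
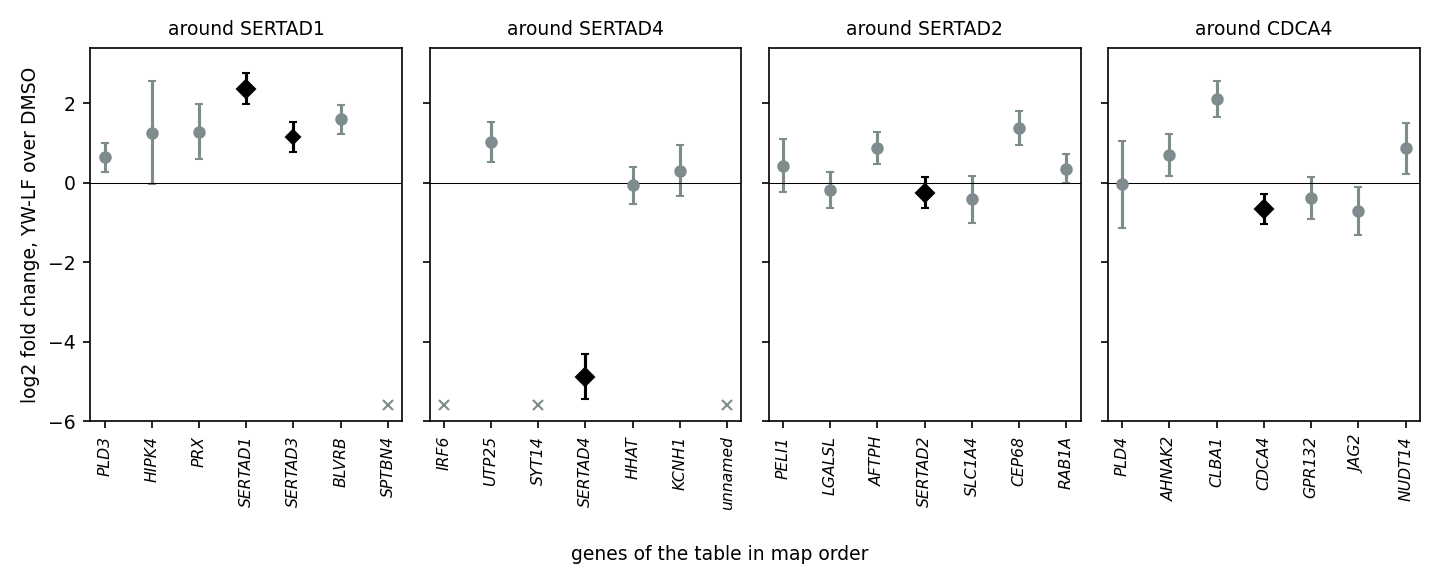
Log2 fold change (YW-LF over DMSO, bars are SE) around SERTAD1, SERTAD4, SERTAD2 and CDCA4, with up to 3 genes of the table on each side, in map order. Black diamonds are members, and SERTAD3 is drawn only as a neighbour of SERTAD1, without a panel of its own. Crosses at the foot are genes under the count filter, with no value. BLVRB lies above 0 beside SERTAD1 and SERTAD3, while HHAT beside SERTAD4 lies at -0.066.

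Genes with the most similar profile over the 4 libraries were sought among 10809 genes with a mean of at least 5 CPM, by the Euclidean distance of centred log2 CPM. For SERTAD1 these were SAT1, which acetylates spermidine and spermine (98.2 and 147 CPM in YW-LF, against 22.3 and 26.2 CPM in DMSO; distance 0.21), and the histone demethylase gene KDM6B (63.3 and 86.0 CPM in YW-LF, against 17.2 and 13.7 CPM in DMSO; distance 0.22). For SERTAD4 they were UHRF1 at a distance of 1.06 and LFNG, a glycosyltransferase that modifies Notch receptors, at 1.13. LFNG had 0.96 and 1.33 CPM in YW-LF, against 21.2 and 16.2 CPM in DMSO. These distances were the widest of the 5 members. For SERTAD3 the closest were GK, glycerol kinase, at 0.049 and RPP25L at 0.051. For CDCA4 they were the kinetochore gene NSL1 at 0.052 and the mitochondrial ribosomal protein gene MRPL17 at 0.057, and for SERTAD2 MGRN1, a ubiquitin ligase, at 0.060 and DPH1, of diphthamide synthesis, at 0.066. With 4 libraries such likeness describes these samples only.

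The direction of each member's fold change had the same sign under every scaling, filter, tool and left-out library tried, which for SERTAD1, SERTAD3 and SERTAD4 follows from groups that do not overlap. The range was 2.08 to 2.60 for SERTAD1, 1.02 to 1.27 for SERTAD3, -0.49 to -0.045 for SERTAD2, -0.97 to -0.41 for CDCA4 and -5.64 to -4.38 for SERTAD4. Both ends of each range came from leaving out a YW-LF library.

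**Figure D5:**
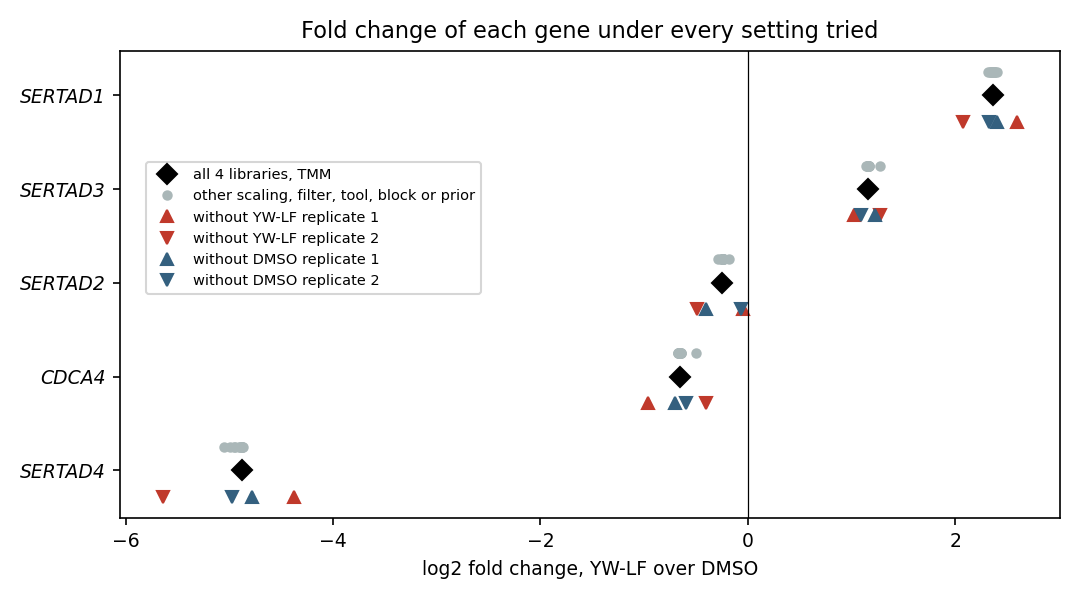
Log2 fold change (YW-LF over DMSO) of each SERTA-domain gene with all 4 libraries and TMM scaling (black diamonds), under other settings (grey dots) and with 1 library left out (triangles). No point of SERTAD1, SERTAD3, CDCA4 or SERTAD4 crosses 0, and SERTAD2 comes nearest, at -0.045.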

How the data were processed

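The authors deposited raw counts for each gene: the values are whole numbers with a different total in each library. No source used here names an aligner, counting program, annotation or strand setting. Mouse builds (GRCm38, mm10) stand in the submitters' processing notes, but all 20263 row identifiers are human Ensembl genes and 0 are mouse. RNA was extracted with a Qiagen kit and libraries were made with a Hieff mRNA kit, per the labels' protocols. A second deposited table held the same DMSO counts (40526 of 40526 values identical). It also held 2 columns that fitted no sample's label and were left out. Groups were taken from the sample titles.

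Symbols were found for 20148 rows; rows without one took 0.102% of the counts and were kept. Gene coordinates and exon lengths are from GENCODE 29 (GRCh38), matched by identifier. Promoter sequences are from RefSeq (GRCh38.p14), where all 5 members were found. The test was edgeR 4.0.16 in R 4.3.3 (filterByExpr, 13816 genes, TMM, quasi-likelihood F-test over all 4 libraries without covariates, Benjamini-Hochberg threshold 0.05). The SE is the log2 fold change divided by the square root of F. It rests on a spread taken as equal in both groups, although across genes the YW-LF libraries correlated less well (0.907) than the DMSO libraries (0.976). The SE may therefore understate the spread between the YW-LF libraries. Profiles used log2 CPM with a prior count of 2. Alternatives were DESeq2 1.42.0, limma-voom (limma 3.58.1), other scalings and count filters, the replicate block, removal of the 13 mitochondrially encoded genes and leaving out each library. The procedures were run on simulated counts with the same spread in both groups. That check cannot show how they behave with the unequal spread of these libraries.

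The members and gene lists were chosen with earlier results of these data known. Named were all members; CDK4, CCND1, E2F1 and TFDP1; the 3 genes of lowest p per list; the nearest neighbour on each side; and the 2 closest profiles per member. A few genes outside this rule are named where they hold a place beside a member or are part of a partner pair (CDKN2A, CDKN2B, RPA2, E2F6, CEP68, TK1, MCM7, CDC45), chosen after their values were seen.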

Additional observations from a re-analysis of the deposited data

How the results depend on the processing

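The log2 fold changes of the 5 SERTA-domain genes moved by less than the spread between replicates under every other scaling, count filter, tool, the replicate block, the prior count and the removal of mitochondrially encoded genes. Leaving out 1 library gave 2.08 to 2.60 for SERTAD1, -5.64 to -4.38 for SERTAD4 and -0.97 to -0.41 for CDCA4. The count of all genes called after adjustment was 0 in edgeR, but 275 with a total count of at least 1 as the only filter (155 higher, 120 lower), 1464 in DESeq2 (841 higher, 623 lower), 331 with the replicate block (186 higher, 145 lower), and 64 to 5882 with 1 library left out. Those fits assume that the lone library of a group varies like the other group; limma-voom, the other scalings and the stricter filter called 0. With library size as the only scaling the median of all genes was 0.16, against 0.063 with TMM.

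List calls were 0 in edgeR with all libraries. DESeq2 called 1 gene of the cyclin D-CDK4/6 side, 2 E2F and DP factors and 12 E2F targets, all lower. It called 2 neighbours higher. Of all genes DESeq2 called 4.41% lower and 5.95% higher. EdgeR with a total count of at least 1 as the only filter called 1 E2F factor and 6 E2F targets, where 1.64% of all genes were called. With the replicate block edgeR called 1 E2F factor, 8 E2F targets and 1 neighbour, where 2.4% of all genes were called. Leaving out 1 library gave 0 to 4 calls for the cyclin D-CDK4/6 side, 0 to 5 for E2F and DP factors, 0 to 3 for other binding partners, 2 to 25 for E2F targets, 0 to 2 for lipolysis genes and 0 to 8 for neighbours. Medians then ranged from -1.0 to -0.43 for E2F and DP factors, -2.01 to -1.21 for E2F targets and -0.48 to 0.53 for lipolysis genes, where the sign turned; the cause was not tested. The cyclin D-CDK4/6 median turned to 0.16 with the filter on a total count of at least 1 and 0.19 in DESeq2. These fits test 9 rather than 8 of its genes.

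The replicate numbers are tied to no batch by the labels, and same-numbered libraries deviated from their group means with a correlation of 0.037 across genes, so the numbers were not taken as pairs. Depth limits SERTAD4 in YW-LF (60 and 88 counts) and CDKN2A (2 counts in 1 library).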
